A study of Mus musculus with 18 samples.

Results

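The genes of the proteasome were examined in RNA-Seq counts from the ventral dentate granule cell layer of adult male mice. They were chosen by name alone, as every symbol that starts with Psma, Psmb, Psmc, Psmd, Psme, Psmf or Psmg followed by a digit, without the 4 listed symbols marked -ps (Psmb5-ps, Psmb6-ps, Psmb7-ps2 and Psme2b-ps, with between 1 and 215 counts over all libraries). The rule found 49 of the 34620 genes listed, of which 48 had enough counts to be tested among 17421 tested genes. Psma8, a testis form of an alpha subunit, was the gene not tested, with 5 and 5 counts in WT, 6 and 5 in F1, and 4 and 2 in F2. One gene that fits the rule, Psmc3ip, encodes a partner of meiotic recombination proteins and no subunit of the proteasome. Psmc3ip stays in all counts over the members, those of upstream sequence included, and is kept apart only where genes are grouped by role.

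The study asked whether an anxiety-like trait that starts with a maternal deficit of the serotonin 1A receptor goes along with lasting changes of gene expression in later generations. The 6 libraries come in groups of 2: WT, F1 and F2 males of the outbred Swiss Webster strain, all 8 to 12 weeks old and all wild-type themselves by the study's breeding scheme. For WT males the labels give mother and grandmother as WT, for F1 males both as heterozygous (5HT1A-/+), and for F2 males a WT mother and a 5HT1A-/+ grandmother. The labels name no drug and no transgene, and both comparisons with WT use the same 2 WT libraries. The null allele behind the lines was made on a 129SvEv background and moved by repeated backcrossing to Swiss Webster, the labels do not say how many animals a library holds, and p-values measure only the spread between libraries.

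The proteasome is the large protease that removes most short-lived and damaged proteins from the cytosol and nucleus. Its barrel-shaped 20S core is built of rings of alpha subunits, which gate the entrance, and rings of beta subunits, some of which cut the substrate. A 19S particle caps the core, recognizes and unfolds ubiquitin-tagged proteins with a ring of ATPases and removes the ubiquitin in its lid, while other activators open the core without ubiquitin. In neurons the proteasome shapes synapses and plasticity, and the transcription factor Nfe2l1 (also called Nrf1) raises the subunit genes together when proteasome activity falls short.

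Reads counted on genes ranged from 26358165 to 33727936 per library, and the proteasome genes held between 0.359% and 0.397% of them. CPM stands for the counts of a gene relative to the TMM-scaled size of its library, and groups were compared by the exact test in edgeR, whose p-values were adjusted by Benjamini and Hochberg's method over all tested genes (q), with a gene called at q under 0.01. The spread shared by all genes amounts to a coefficient of variation of 10.6%. Of all tested genes, 12.3% were called in F1 against WT (3.77% higher, 8.54% lower) and 12% in F2 against WT (3.86% higher, 8.10% lower). The granule cell markers Prox1 and Calb1 lay between 228 and 345 CPM and between 265 and 392 CPM, and Htr1a, the serotonin receptor gene itself, was not called (log2 fold change -0.18, q = 0.332 in F1 and 0.20, q = 0.266 in F2 by edgeR). Since this is tissue, fewer cells of a type and less RNA per cell cannot be told apart in any of the results.

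Upstream sequence of 4 members is shown because the subunit genes are known to be regulated together and because 1 of the 4, Psme4, is the member that fell. The sequences come from RefSeq windows given for the GRCm38.p6 build, matched to the mm9 build that the counts use, and read 5′ to 3′ on the gene's strand. They cover up to 250 bases before the RefSeq start and are cut where they reach past 30 bases into the transcript that GENCODE M1 annotates. Capitals mark matches on either strand of CCGGAAG (the core of ETS factor sites), GGGCGG (the GC box), CCAAT, and TGACNNNGC (the antioxidant-type element that Nfe2l1 can use). Shown are Psme4 at chr11:30671525-30671755 (+ strand), Psmb5 at chr14:55236833-55237082 (- strand), Psmd2 at chr16:20651475-20651724 (+ strand) and Psmc1 at chr12:101348162-101348411 (+ strand).
Psme4: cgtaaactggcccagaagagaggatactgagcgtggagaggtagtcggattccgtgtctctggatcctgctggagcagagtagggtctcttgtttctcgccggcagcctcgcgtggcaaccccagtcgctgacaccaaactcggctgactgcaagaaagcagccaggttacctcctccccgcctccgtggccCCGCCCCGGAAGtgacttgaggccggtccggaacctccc
Psmb5: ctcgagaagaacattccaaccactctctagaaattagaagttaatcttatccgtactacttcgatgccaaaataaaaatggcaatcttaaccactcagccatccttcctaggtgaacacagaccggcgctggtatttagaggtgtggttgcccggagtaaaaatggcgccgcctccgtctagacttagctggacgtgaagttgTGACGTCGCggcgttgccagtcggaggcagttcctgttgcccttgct
Psmd2: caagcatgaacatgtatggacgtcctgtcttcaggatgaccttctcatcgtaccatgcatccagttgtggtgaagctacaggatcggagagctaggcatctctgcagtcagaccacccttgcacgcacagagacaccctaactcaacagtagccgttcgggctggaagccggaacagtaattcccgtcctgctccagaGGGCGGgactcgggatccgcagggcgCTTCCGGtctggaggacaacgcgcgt
Psmc1: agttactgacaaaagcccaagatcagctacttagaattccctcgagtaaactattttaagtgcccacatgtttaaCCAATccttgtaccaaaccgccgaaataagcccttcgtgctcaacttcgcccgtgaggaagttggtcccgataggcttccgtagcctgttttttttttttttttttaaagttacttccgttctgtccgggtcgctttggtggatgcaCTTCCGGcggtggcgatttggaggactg
In the Psme4 window the GC box and the ETS core overlap. RefSeq windows were given for 41 of the 49 members, 44 windows in all. CCGGAAG was found in 31.8% of these windows and in 6.90% of all 32851 windows of the same length, and GGGCGG in 52.3% and 32.7%. CCAAT was as frequent in the members' windows (34.1%) as in all (33.8%), and TGACNNNGC was found in 11.4% and 10.2%, in the members' windows of Psmd9, Psmb6, Psmd12, Psmc6 and Psmb5. The windows differ in base composition, which was not matched, some genes have more than 1 window, and a match says only that the letters are there.

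Levels of the members were compared with each other per kilobase of the longest coding transcript in GENCODE M1. In WT the core beta genes Psmb1 to Psmb7 lay highest, between 56.2 and 150 CPM per kilobase (median 116), followed by the ATPase genes Psmc1 to Psmc6 (52.3 to 130, median 76.4) and the alpha genes Psma1 to Psma7 (36.02 to 126, median 70.4). The 8 lid genes (20.8 to 62.7, median 48.9) and the 3 other genes of the 19S base (37.7 to 62.2, median 48.9) came next. The highest single level was that of Psmb5, the chymotrypsin-like catalytic subunit, with 160 and 140 CPM per kilobase in the WT libraries, and the next in order, Psmb1 (135 and 133), Psmc5 (137 and 124), Psma7 (122 and 130) and Psmb7 (121 and 130), do not separate from one another beyond the spread of their libraries.

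Genes that build or open the particle were listed at lower levels per kilobase than most genes of its body. The chaperones of 20S assembly, Psmg1 to Psmg4, had between 13.6 and 22.4 CPM per kilobase in WT, and those of 19S assembly, Psmd5, Psmd9 and Psmd10, between 9.70 and 17.8. Among the activators, Psme1 and Psme2, which form the interferon-inducible PA28 cap, had 39.9 and 19.97, Psme3, their nuclear relative, had 31.7 and Psme4, the PA200 cap, had 9.12. Psmf1, the PI31 gene, had 8.39.

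The interferon-inducible catalytic subunits were close to the lower end of the scale. In WT, Psmb8 had 2.15 and 2.47 CPM per kilobase and Psmb9 had 2.37 and 3.05, against 160 and 140 for Psmb5, which Psmb8 replaces in the immunoproteasome. Psmb10, the third of these subunits, lay higher, at 21.4 and 21.7. Psmb11, a beta subunit known from thymus cortex, was lowest of the tested members at 0.679 and 0.671. Psmb8 (chr17:34334666-34338399, + strand) and Psmb9 (chr17:34318932-34324709, - strand) lie near each other in the MHC region, and 212 bases of Psmb9's exons overlap those of Tap1 and 187 bases of Psmb8's those of Gm20496, where reads may go to neither gene. Psmb5 has such an overlap too, with Mir686, of 109 bases (11.8% of its exons, against 5.8% for Psmb9 and 6.8% for Psmb8). With length taken as the union of all annotated exons, medians fell to 96.6 for the beta ring and to 41.6 for the alpha ring, so that the ATPase ring, at 55.3, lay above the alpha ring by both lengths. Some single genes moved further, Psma7 from 126 to 37.5 and Psmb6 from 116 to 49.5 in WT. Psmb5 (141) and Psmb1 (134) stayed the highest.

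**Figure D1:**
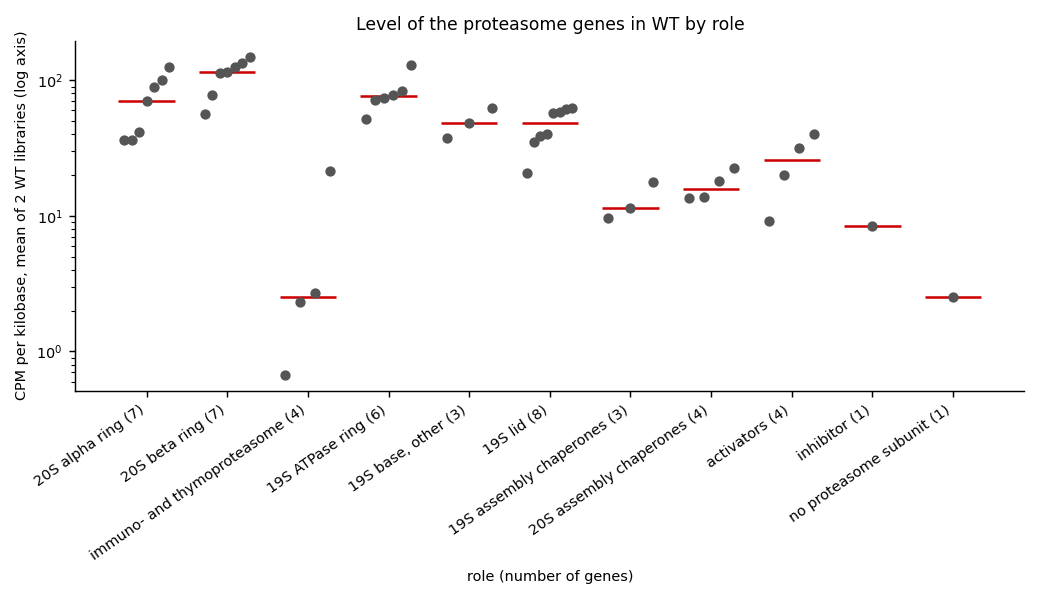
Level of each tested member in WT, as CPM per kilobase of the longest coding transcript on a log axis, grouped by role, with 1 point per gene (mean of 2 libraries) and a red line at the median of the role. The beta ring has the highest median (116) and Psmb11 is the lowest point (0.675), while Psmb10 stands apart from the other inducible subunits at 21.5.

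The order of these levels was nearly the same in every library. Spearman's rho of the 48 levels per kilobase lay between 0.977 and 0.997 over the 15 pairs of libraries, as a description over genes that share each library. The highest values were for pairs from different groups, F1 replicate 1 with F2 replicate 2 (0.997) and F1 replicate 2 with F2 replicate 1 (0.996), against 0.992 within WT, 0.990 within F1 and 0.993 within F2.

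In F1 against WT, none of the 48 tested members was called higher and 1, Psme4, was called lower. The called share of 2.08% compares with the 12.3% of all tested genes. At an unadjusted p under 0.05, 7 members were higher and 1 lower (32.6% of all genes passed in either direction), DESeq2 called Psme4 alone, and the quasi-likelihood test of edgeR, which called 5.91% of all genes, did so too. The median log2 fold change of the members was 0.07 (0.01 over all genes), and 32 members were above 0. The libraries of F1 and WT did not overlap for 23 of the 48 members, 17 above and 6 below, where those of 60.4% of all genes did not overlap.

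F2 against WT gave the same calls on the same WT libraries, 0 higher and Psme4 lower, where 12% of all genes were called. At an unadjusted p under 0.05, 1 member was higher and 3 were lower (32.4% of all genes in either direction), DESeq2 again called Psme4 alone, and the quasi-likelihood test, with 5.72% of all genes called, called no member. The median log2 fold change was -0.04 (0.00 over all genes), 18 members were above 0, and the libraries did not overlap for 11 members above and 15 below WT, against 63% of all genes. Without F2 replicate 1 the median was 0.01 and 26 members were above 0. At a threshold of 0.05, the one named in the study's methods, Psmc1 and Psmd7 were also called higher in F1, where 20.8% of all genes were called, and Psmb11 was also called lower in F2, where 20.7% were. For most members the change was confined to a narrow range. The 95% interval of the log2 fold change lay wholly between -0.5 and 0.5 for 37 members in F1 (77.1%, against 34.3% of all genes) and for 40 in F2 (83.3%, against 34.0%). Members have high counts, and these intervals follow from counts as well as from spread.

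**Figure D2:**
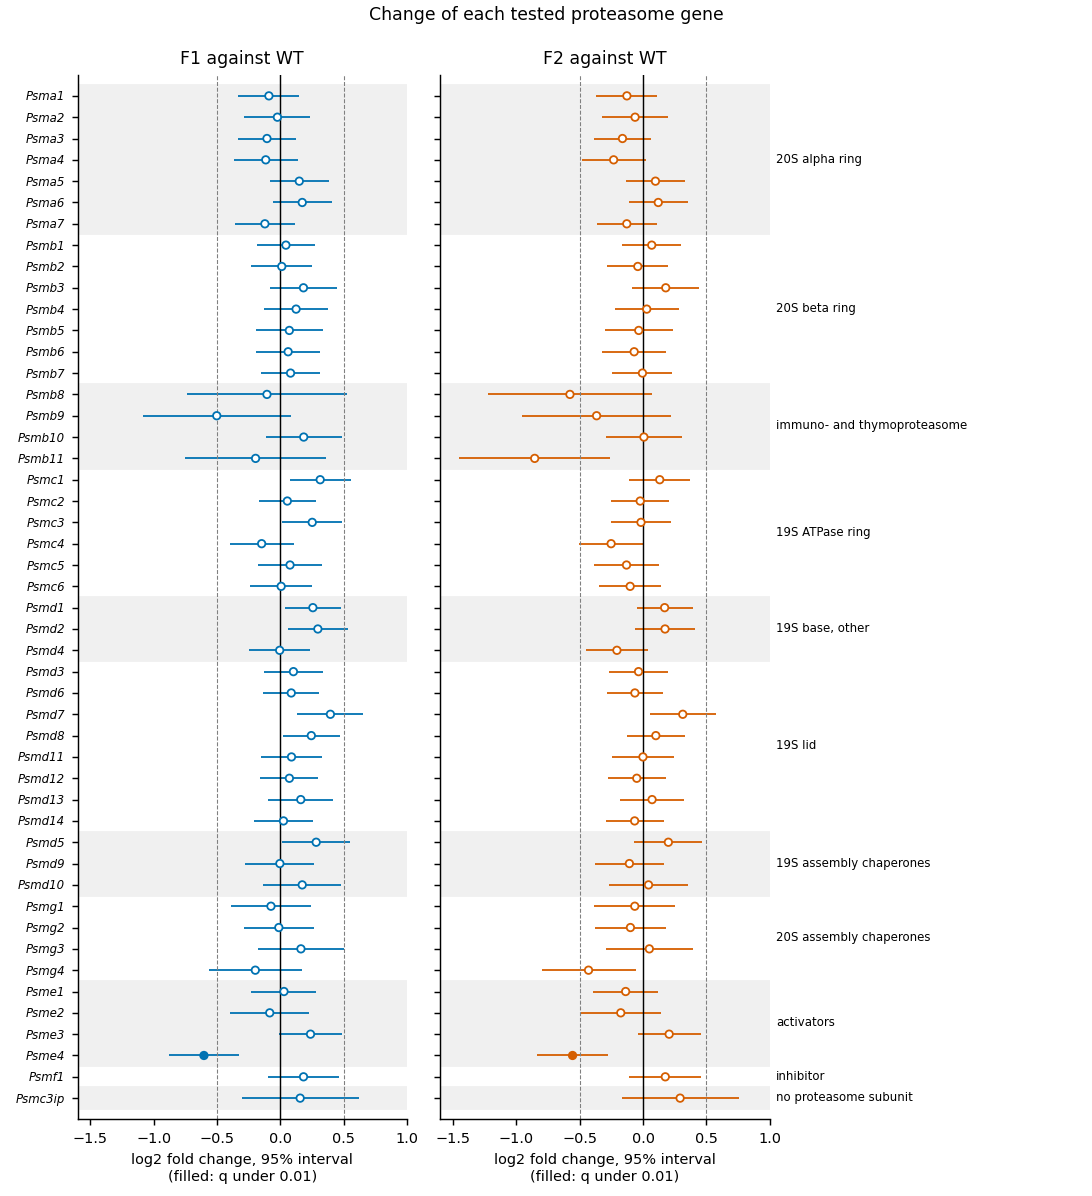
Log2 fold change of each tested member in F1 (left) and F2 (right) against WT, with its 95% interval, ordered by role, filled where q is under 0.01 and with dashed lines at -0.5 and 0.5. Psme4 is the filled point in both panels (-0.60 and -0.56), and the wide intervals belong to the inducible subunits Psmb8, Psmb9 and Psmb11 at a few CPM.

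Psme4 encodes PA200, a large single-chain cap of the 20S core known for the degradation of acetylated histones and for roles in DNA repair and spermatogenesis. It lies on chr11:30671726-30780361 (+ strand, mm9), and its exons overlap those of no other annotated gene. Its level was 67.2 and 51.2 CPM in WT, 38.5 and 39.5 CPM in F1, and 40.8 and 39.8 CPM in F2. All F1 and F2 libraries lay below both WT libraries, and WT was the group whose libraries differed most. Psme4 fell to 0.659 of the WT level in F1 (95% interval 0.543 to 0.799, log2 fold change -0.60, standard error 0.14, q = 0.00042 by edgeR's exact test). In F2 it fell to 0.680 of WT (0.560 to 0.826, log2 fold change -0.56, standard error 0.14, q = 0.0014 by the same test). F2 and F1 differed by a log2 fold change of 0.05 (95% interval -0.23 to 0.33).

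The size of the fall depends on WT replicate 1. Without that library the log2 fold change was -0.39 (q = 0.0735 by edgeR) in F1 and -0.34 (q = 0.145 by edgeR) in F2, and without WT replicate 2 it was -0.77 and -0.73. The call in F1 was also lost without F1 replicate 1 (q = 0.0115 by edgeR), and that in F2 without F2 replicate 1 (q = 0.0477 by edgeR) or F2 replicate 2 (q = 0.0519 by edgeR), with log2 fold changes of -0.57, -0.57 and -0.53. By the quasi-likelihood test the adjusted p was 0.0097 in F1 and 0.0143 in F2. The share of reads outside exons, among reads on genes or outside exons, was highest in the WT libraries, with 18.01% and 20.96% in WT, 13.99% and 12.43% in F1, and 14.11% and 17.67% in F2. WT was also higher in 6 nuclear long noncoding RNAs (Malat1, Neat1, Meg3, Miat, Snhg11 and Rian). All 6 had log2 fold changes below 0 in both comparisons (medians -1.12 in F1 and -1.05 in F2). Of the 6, 5 were called lower in F1 (8.54% of all genes) and 6 in F2 (8.10%). Their summed level was 8242 and 7978 CPM in WT against 3217 to 4075 CPM in F1 and F2. The part of either in the fall of Psme4 was not tested.

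**Figure D3:**
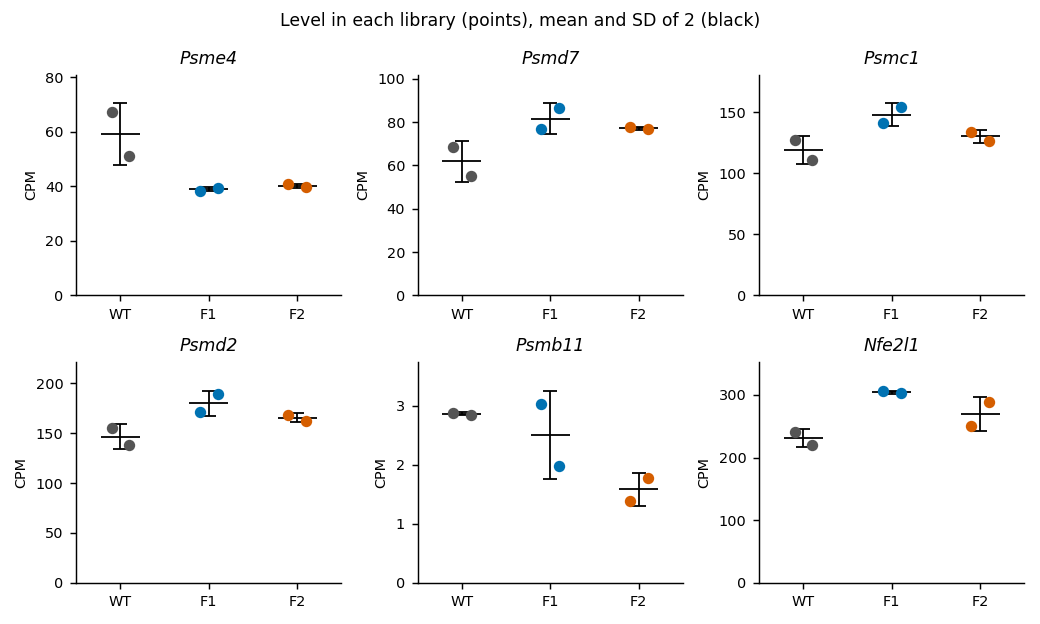
CPM of Psme4, Psmd7, Psmc1, Psmd2, Psmb11 and Nfe2l1 in each library (coloured points, 2 per group), with the mean and SD of a group in black and every axis from 0. The F1 and F2 points of Psme4 lie between 38.5 and 40.8 CPM, below both WT points, and those of Psmd7 lie between 76.7 and 86.6 CPM, above both.

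None of the other activators was called. Psme3 had 92.2 and 76.5 CPM in WT, 96.2 and 103 CPM in F1, and 99.8 and 94.9 CPM in F2, and its F1 and F2 libraries lay above both WT libraries (log2 fold changes 0.24, q = 0.174 and 0.21, q = 0.258 by edgeR). Psme1 (42.5 and 46.1 CPM in WT, 48.9 and 41.5 in F1, 39.9 and 40.7 in F2) and Psme2 (20.9 and 17.6, 19.01 and 17.3, 16.9 and 17.2) overlapped WT in F1 and lay just below it in F2 (-0.14 and -0.18 on the log2 scale). These genes are neighbours, Psme1 at chr14:56196960-56200366 (+ strand) and Psme2 at chr14:56206278-56209950 (- strand). Psmf1, whose product can inhibit the core in vitro, had log2 fold changes of 0.18 in F1 and 0.18 in F2 with q of 0.399 and 0.434 by edgeR.

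In the core, no gene passed the test and every gene had an interval within -0.5 to 0.5 in both comparisons. The alpha genes had a median log2 fold change of -0.09 in F1 and -0.13 in F2, with 5 of 7 below 0 each time, and Psma4 was the lowest in F2 (114 and 121 CPM in WT, 97.2 and 103 CPM in F2, log2 fold change -0.23, q = 0.200 by edgeR). The beta genes had medians of 0.07 and -0.0047, all 7 above 0 in F1 and 3 in F2. Single libraries turn these counts: without F1 replicate 1, 3 of 7 beta genes were above 0 in F1 (median -0.03), and without F2 replicate 1, 6 of 7 were above 0 in F2 (0.08). Without F1 replicate 2, 5 of 7 alpha genes were above 0 in F1 (median 0.035). Psma5 and Psma6 were the alpha genes above 0 in both comparisons. Psma5 had 45.5 and 43.9 CPM in WT, 49.4 and 49.9 CPM in F1, and 47.6 and 48.2 CPM in F2, all above WT, and Psma6 had 75.1 and 71.6 CPM in WT, 84.0 and 81.4 CPM in F1, and 84.5 and 75.0 CPM in F2. Among the beta genes Psmb3, a structural subunit, was highest against WT, with 42.1 and 44.0 CPM in WT, 52.8 and 44.9 CPM in F1, and 45.4 and 52.1 CPM in F2 (log2 fold changes 0.18 and 0.18, q = 0.352 and 0.374 by edgeR). The catalytic subunits Psmb5 (139 and 122 CPM in WT, 150 and 124 in F1, 118 and 137 in F2), Psmb6 (94.5 and 90.9, 107 and 86.8, 85.2 and 91.4) and Psmb7 (141 and 150, 162 and 145, 138 and 152) overlapped between all 3 groups.

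Of the 17 genes of the 19S particle, 15 had a log2 fold change above 0 in F1 and 6 in F2. The number in F1 was 13 without F1 replicate 1 and 14 without WT replicate 1. In F2 it was 9 without WT replicate 1 or without F2 replicate 1. All 8 genes of the cytosolic chaperonin were also above 0 in F1 (median 0.16, against 0.09 for the 19S genes). Of respiratory chain genes 41 of 85 were, and of ribosomal protein genes 12 of 82. None of the 17 19S genes was called. Nearest to the threshold was Psmd7, the lid partner of the deubiquitinase Psmd14. It had 68.7 and 55.3 CPM in WT, 76.7 and 86.6 CPM in F1, and 77.5 and 76.7 CPM in F2. Both F1 and F2 lay above WT without overlap, with folds of 1.32 in F1 (95% interval 1.10 to 1.58, q = 0.019 by edgeR's exact test) and 1.24 in F2 (1.037 to 1.489, q = 0.0752 by the same test). Without WT replicate 1 it was called in F1 (log2 fold change 0.56, q = 0.0051 by edgeR). Psmd14 itself had 84.9 and 93.4 CPM in WT, 90.2 and 91.1 CPM in F1, and 84.7 and 85.5 CPM in F2 (log2 fold changes 0.03 and -0.07). Psmd8, which helps to hold the lid to the base, had 91.6 and 84.8 CPM in WT, 106 and 103 CPM in F1, and 94.1 and 95.2 CPM in F2 (log2 fold changes 0.25 and 0.10).

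The scaffold subunits of the base, Psmd1 and Psmd2, which bind ubiquitin shuttles, also lay above WT in both groups. Psmd2 had 155 and 138 CPM in WT, 171 and 189 CPM in F1, and 169 and 162 CPM in F2, and log2 fold changes were 0.30 (q = 0.0595 by edgeR) and 0.17 (q = 0.325 by edgeR). Psmd1 had 118 and 116 CPM in WT, 140 and 141 CPM in F1, and 130 and 134 CPM in F2, and log2 fold changes were 0.26 (q = 0.087 by edgeR) and 0.17 (q = 0.300 by edgeR). For both genes all F1 and F2 libraries lay above the WT libraries, with the F2 libraries between those of WT and F1. The direct comparison of F2 with F1 called neither gene. Its log2 fold changes were -0.09 for Psmd1 (95% interval -0.31 to 0.13) and -0.12 for Psmd2 (-0.36 to 0.11), so the order of F1 and F2 is not resolved. Psmd4, the ubiquitin receptor Rpn10, lay below WT in F2, with 112 and 106 CPM in WT, 118 and 100 CPM in F1, and 92.0 and 97.3 CPM in F2 (log2 fold change -0.21, q = 0.243 by edgeR).

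Among the ATPases, Psmc1 had 127 and 111 CPM in WT, 141 and 155 CPM in F1, and 134 and 127 CPM in F2. Its F1 libraries lay above WT (log2 fold change 0.32, 95% interval 0.08 to 0.55, q = 0.0486 by edgeR), and its F2 libraries overlapped it (0.13, q = 0.494 by edgeR). Psmc3 had 158 and 146 CPM in WT, 190 and 172 CPM in F1, and 142 and 158 CPM in F2 (log2 fold changes 0.25 and -0.02). Psmc4 was the ATPase gene below 0 in both comparisons (-0.15 and -0.25), with 117 and 97.2 CPM in WT and 86.5 and 93.8 CPM in F2. The lid genes Psmd3 (139 and 123 CPM in WT, 142 and 141 in F1, 132 and 125 in F2), Psmd6 (87.8 and 84.8, 93.5 and 89.8, 81.4 and 83.6), Psmd11 (62.7 and 55.8, 64.4 and 61.6, 56.01 and 62.4), Psmd12 (76.7 and 79.3, 85.1 and 78.8, 72.3 and 78.4) and Psmd13 (75.8 and 63.7, 79.98 and 76.1, 78.6 and 68.01), and the ATPases Psmc2, Psmc5 and Psmc6, had log2 fold changes between -0.13 and 0.16 over both comparisons.

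The inducible and thymus-type subunits had few counts and wide intervals. Psmb11 had 2.88 and 2.85 CPM in WT, 3.04 and 1.98 CPM in F1, and 1.38 and 1.78 CPM in F2, with a log2 fold change in F2 of -0.86 (95% interval -1.45 to -0.26, q = 0.0306 by edgeR) and in F1 of -0.19 (-0.75 to 0.36). Psmb8 (3.50 and 4.01 CPM in WT, 2.24 and 4.73 in F1, 2.28 and 2.75 in F2) and Psmb9 (3.21 and 4.12, 2.08 and 3.08, 3.44 and 2.23) had 95% intervals of the log2 fold change from -1.22 to 0.07 (Psmb8 in F2) and from -1.09 to 0.08 (Psmb9 in F1), which include 0. Psmb10 had 27.2 and 27.5 CPM in WT, 34.8 and 27.3 CPM in F1, and 26.1 and 28.8 CPM in F2. Of the assembly chaperones, Psmg4 had the lowest fold changes, with 12.2 and 12.6 CPM in WT, 12.1 and 9.52 CPM in F1, and 8.79 and 9.62 CPM in F2 (log2 fold change in F2 -0.43, q = 0.0899 by edgeR). Psmd5, which holds the ATPases during assembly, had 39.2 and 32.6 CPM in WT, 41.4 and 46.1 CPM in F1, and 41.9 and 40.7 CPM in F2 (log2 fold changes 0.28 and 0.20, q = 0.125 and 0.319 by edgeR). Psmc3ip had 2.97 and 3.56 CPM in WT, 3.47 and 3.79 CPM in F1, and 4.15 and 3.82 CPM in F2, with 21.2% of its exon bases shared with Mlx.

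Between F2 and F1, 0 members were called in either direction by edgeR's exact test, where 0.740% of all genes were called (0.304% higher, 0.436% lower). At an unadjusted p under 0.05, 2 members were lower in F2, Psmb11 and Psmc3, and none was higher (8.64% of all genes in either direction), and DESeq2 and the quasi-likelihood test called none. The sign was uneven: 43 of 48 members were below 0, with a median of -0.09 (0.00 over all genes, 50.2% of which were below 0). Libraries did not overlap for 2 members above and 19 below, against 39.1% of all genes. All 17 genes of the 19S particle were below 0, with a median of -0.12 and a range of -0.27 (Psmc3) to -0.08 (Psmc2). The members share their libraries and are not independent of each other.

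This count depends on F1 replicate 1 more than on the other libraries. Without it 33 of 48 members were below 0, with a median of -0.05, and without any 1 of the other libraries the number was between 38 and 43. For the 19S genes 17 of 17 stayed below 0 without F1 replicate 1 and at least 16 of 17 without any other library. The 3 other scalings gave 43, 40 and 40 of 48 members and 17 of 17 19S genes below 0. The 8 genes of the cytosolic chaperonin, another large protein machine, were all below 0 as well (median -0.09), as were 74 of 85 respiratory chain genes (-0.12), while 73 of 82 ribosomal protein genes were above 0 (0.11).

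The libraries of F1 and of F2 differed from each other in the core genes, and those of WT in the 19S genes. Of the 14 core genes, 13 were higher in F1 replicate 1 than in F1 replicate 2, by a median of 0.19 on the log2 scale, and 13 were higher in F2 replicate 2 than in F2 replicate 1, by 0.10. Respiratory chain genes (77 of 85 and 75 of 85) and ribosomal protein genes (76 of 82 and 66 of 82) were split the same way, the 19S genes less so (12 of 17 each). In WT, 14 of 17 19S genes were higher in replicate 1, with a median of replicate 2 minus replicate 1 of -0.12 on the log2 scale, and 6 of 14 core genes. Over all genes the split was near even, with 8869 of 17421 higher in F1 replicate 1. In the core the distance between F1 libraries exceeded that between the group means, so that no order of the groups can be read from the median level of the core. Length moved with these differences, most in F1. For the 48 members it was that of the longest coding transcript, and for 17241 genes with a length the union of all exons. The values for members and for all genes are therefore not on the same measure. Spearman's rho between length and the difference of F1 replicate 2 from replicate 1 was 0.356 over the members and 0.239 over all genes with a length. The same pairs were -0.184 and -0.102 in F2 and -0.143 and -0.0359 in WT, as descriptions over genes of the same libraries. The part of length in the differences was not tested.

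**Figure D4:**
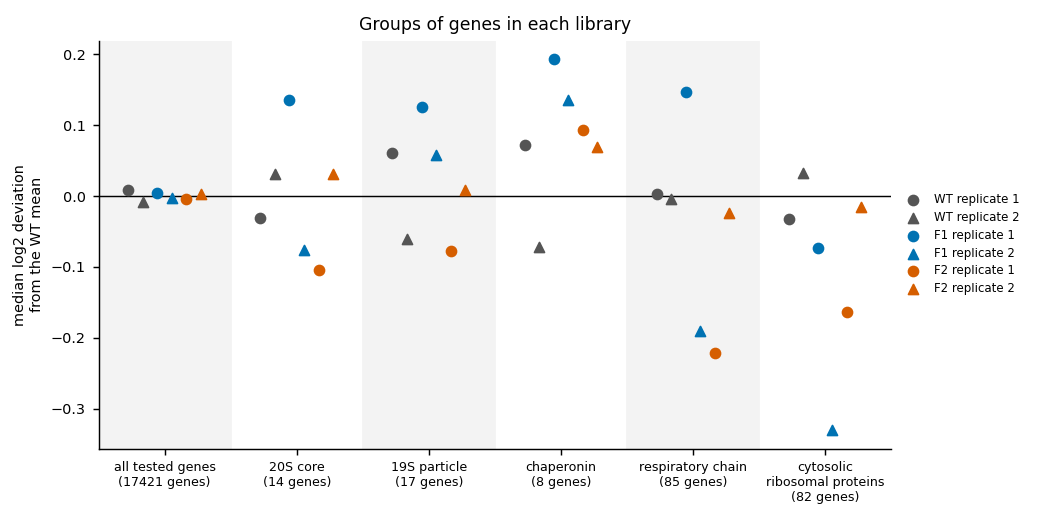
Median log2 deviation from the WT mean in each library for all tested genes and for 5 groups of genes, with circles for replicate 1 and triangles for replicate 2 (grey WT, blue F1, orange F2). For the 20S core F1 replicate 1 is highest (0.14) and F2 replicate 1 lowest (-0.10), and the respiratory chain spreads in the same order of F1 and F2 libraries.

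Among genes around the proteasome, 1 of 8 regulators was called in F1 (12.5%) and 0 in F2. Of all tested genes, 12.3% were called in F1 and 12% in F2, so the share of regulators in F1 was near that of all genes. Nfe2l1, the transcription factor that drives subunit genes, had 241 and 221 CPM in WT, 306 and 303 CPM in F1, and 251 and 289 CPM in F2. Its F1 and F2 libraries all lay above WT, and the rise passed the test in F1 (log2 fold change 0.40, q = 0.0085 by edgeR's exact test) and not in F2 (0.23, q = 0.181 by the same test), while F2 and F1 themselves had q = 0.810. The call in F1 held in 8 of 21 alternative analyses, with log2 fold changes from 0.35 to 0.47 and q from 6.15e-05 to 0.123, and not in the quasi-likelihood test (q = 0.0241). It was lost without any 1 of the 6 libraries, with q from 0.0102 (without F2 replicate 2) to 0.123 (without WT replicate 2) by edgeR. None of the other 7 regulators tested was called, among them Nfe2l2 (9.30 and 8.87 CPM in WT, 11.4 and 12.6 in F1, 12.2 and 11.8 in F2) and Mafk, a partner of both factors.

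Of the genes for partners, ubiquitin supply, shuttles and antigen presentation, none was called in either comparison by edgeR's exact test. The shares over all tested genes were 12.3% in F1 and 12% in F2. Among 11 partner genes tested, the nearest were Fbxo7, which binds PI31 (60.9 and 66.8 CPM in WT, 50.5 and 47.7 in F1, 56.7 and 59.7 in F2, log2 fold change in F1 -0.38, q = 0.0125), and Ube3c, a ligase bound to the 19S particle (66.7 and 57.4 CPM in WT, 73.5 and 90.4 in F1, 81.5 and 72.3 in F2, 0.40, q = 0.023). Among 9 shuttle and unfoldase genes, Ubqln1 had 143 and 129 CPM in WT, 171 and 187 CPM in F1, and 183 and 161 CPM in F2 (0.39, q = 0.0106 in F1 and 0.34, q = 0.0352 in F2), and Vcp, the segregase that hands substrates over, had 126 and 122 CPM in WT, 148 and 151 CPM in F1, and 141 and 134 CPM in F2. The ubiquitin-activating enzyme gene Uba1 had 284 and 245 CPM in WT, 324 and 345 CPM in F1, and 307 and 299 CPM in F2 (0.34, q = 0.0277 in F1). Of the 10 antigen presentation genes, Nlrc5, the activator of class I genes, was nearest in F2, with 0.706 and 0.845 CPM in WT and 0.299 and 0.186 CPM in F2 (-1.66, q = 0.0198), and Irf1, an interferon-response factor, had 16.7 and 16.8 CPM in WT, 12.2 and 15.7 CPM in F1, and 14.0 and 10.2 CPM in F2.

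Markers of other cells were not even across the libraries. For comparison, 3.77% of all tested genes were called higher in F1 and 3.86% in F2, and 8.54% and 8.10% were called lower. The summed level of 8 oligodendrocyte genes was 1118 and 2033 CPM in WT, 3056 and 2294 CPM in F1, and 1578 and 2967 CPM in F2, with 4 called higher in F1 (Cldn11, Cnp, Mal and Mag) and 2 in F2 (Cldn11 and Cnp). Of 7 astrocyte genes 1 was called higher in F1 (Aldh1l1) and 5 in F2 (Aldh1l1, Aldoc, Gfap, Gja1 and S100b, sums 1277 to 1343 CPM in WT and 1547 to 2076 CPM in F1 and F2), and of 7 microglia genes 0 and 5 (C1qa, C1qb, Csf1r, Cx3cr1 and Tmem119, 118 to 119 CPM in WT and 141 to 183 CPM otherwise). Of 7 endothelial and pericyte genes 0 and 1 (Pecam1) were called higher, and of 6 interneuron genes 0 and 1 (Gad2). Of 6 mossy and CA3 cell genes Cpne4 was called higher in F1 and Csf2rb2 lower in F1 and F2, and of 8 granule cell genes Plk5 alone was called, lower in both. No marker in these lists was at 0 in any library. F1 replicate 1 and F2 replicate 2 were the libraries with the highest oligodendrocyte sums and those in which the core genes stood above the other library of their group. In WT the oligodendrocyte sums also differed (1118 and 2033 CPM), while the core genes had summed levels of 1421 and 1424 CPM. There 6 of 14 core genes were higher in replicate 1 and 8 in replicate 2 (median difference 0.06 on the log2 scale). The part of these cells in the values of the members was not tested.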

How the data were processed

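RNA-Seq libraries were made from microdissected ventral dentate gyrus. The authors mapped 50 bp single-end reads on mm9 with TopHat, limited to known junctions, and used HTSeq (intersection-strict) to count them. The deposited values are raw counts per gene symbol. Reads aligned to several places, reaching outside exons or falling on exons of more than 1 gene are left out, which lowers counts of genes with near-identical copies. The TopHat version differs between the methods and the submitters' processing notes. Whether counting used strand is not given in the sources used here. Bisulfite samples were not analysed here.

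The members and gene lists were chosen with earlier results of these data known. All members are given by name or in a range, and of other genes those called in F1 or F2, or the 2 of a list with the smallest p, of which 1 is not reported here. Further genes, named for what they do or as defining markers, were chosen after their values were seen. Counts were filtered with filterByExpr, scaled by TMM and tested by exactTest in edgeR 4.0.16 (R 4.3.3), with common then tagwise dispersion over all 6 libraries. The test and the tagwise dispersion follow the study's edgeR analysis, whose methods do not name filterByExpr. At q under 0.01, 2144 genes were called in F1 against WT and 2084 in F2 against WT, fewer than the study reports at that threshold. The study's results use a threshold of 0.01 and its methods name 0.05, which was tried as an alternative. Standard errors follow from mean counts and dispersion. Alternatives were other edgeR tests, DESeq2 1.42.0, other scalings, filters and thresholds, each library left out, and offsets for GC content and exon length. The fits were also run on simulated counts with known changes larger than those of any member and a dispersion shared by all genes. That checks the code and not the calls reported here. The labels do not pair the libraries by replicate number. Over all tested genes, differences between replicates 1 and 2 had correlations of -0.0269 (WT and F1), -0.083 (WT and F2) and -0.182 (F1 and F2). With a single difference per group, these do not settle whether libraries were paired. Positions and lengths come from GENCODE M1 on mm9, and plots were made with matplotlib 3.10.9.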

Additional observations from a re-analysis of the deposited data

How the results depend on the processing

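Calls near the threshold changed between alternatives, and Psmb11 in F1 ranged from -0.52 to 0.09 on the log2 scale. In F1 against WT, Psme4 was no longer called in the quasi-likelihood test with the replicate block, giving 0 members called lower, and in F2 against WT the number called lower was 0 in the quasi-likelihood test without the block, 0 with the replicate block and 0 with the block and F2 numbers crossed. The crossed block and the plain likelihood-ratio test were chosen after seeing the data. Psme4 was called in both by the likelihood-ratio fit with a replicate block. The labels number the replicates but do not pair them, and the block changed no other call among the members. At a threshold of 0.05, 2 members were called higher in F1 (Psmc1 and Psmd7) and 2 lower in F2 (Psmb11 and Psme4), where 20.8% and 20.7% of all genes were called. When single libraries were left out, the members called in F1 ranged from 0 to 1 higher and from 0 to 1 lower, and in F2 from 0 to 1 lower. Psmd7 was the member called higher without WT replicate 1 (q of 0.0051 by edgeR), where Psme4 was not called. Psme4 was also lost in F1 without F1 replicate 1 and in F2 without either F2 library. With a library left out, a group of 1 is taken to vary like the others. The median log2 fold change of the members in F1 ranged from 0.0256 (without F1 replicate 1) to 0.132 (without F1 replicate 2), and in F2 from -0.0747 to 0.0112. Psme4 stayed below 0 under all alternatives, at -0.77 to -0.39 in F1 and -0.73 to -0.34 in F2. Why calls differ between tests was not tested. Between F2 and F1, 0 members were called higher and 0 lower under every alternative run, the threshold of 0.05 (1.32% of all genes) included. The number of libraries, 2 per group, limits the precision, as does depth for members at a few CPM.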
